A study of Mus musculus with 4 samples.

Results

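The integrated stress response genes examined here are 10 genes around the transcription factor ATF4: Atf4, Cebpg, Ddit3, Atf3, Trib3, Chac1, Ppp1r15a, Sesn2, Ddit4 and Vldlr. They were chosen by name, with earlier results on these arrays known, so their genotype differences are given as descriptions without tests. Every probe set annotated to a single one of these symbols was taken. This gave 22 probe sets of the 34945 that carry 1 symbol, for 10 of 18193 genes. All 10 genes were bright enough to be tested, among 12509 genes in all.

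The cells were immortalized mouse embryonic fibroblasts in which both alleles of the gene for PTIP are flanked by loxP sites. PTIP is a BRCT-domain protein of the MLL3/MLL4 histone methyltransferase complexes, and the series was made to find genes that depend on it. In the PTIP -/- group a retrovirus carried Cre recombinase, and in the group labelled PTIP +/+ the same floxed cells received the vector alone. Both groups were grown in DMEM with serum and selected with puromycin, and each gave 2 RNAs, numbered 1 and 2, hybridised to 1 Affymetrix array each. The labels do not say whether the numbers stand for separate cultures or infections. Any p-value below therefore measures only the spread between these RNAs, which may be technical. The 4 arrays limit the precision of every value.

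In the integrated stress response, kinases that sense misfolded protein, missing amino acids, viral RNA or heme shortage phosphorylate the translation factor eIF2. Bulk protein synthesis drops, while the Atf4 mRNA is translated better because of short reading frames upstream of its own. ATF4 then drives genes for amino acid supply, for redox balance and for feedback on the response. Because ATF4 is set largely by translation, the level of its mRNA is not a measure of the protein. In fibroblasts the response is best known from amino acid starvation and stress of the endoplasmic reticulum.

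ATF4 binds DNA as a dimer, often with a C/EBP protein, at composite sites that join part of a C/EBP site to part of an ATF site. The letters TGATGNAA, the core of such sites, were looked for on both strands of the RefSeq promoter windows (GRCm38.p6), which run from 250 bases before to 50 after a gene's start. All 10 members had a window, 11 in all since Vldlr has 2 starts, and 4 of the 11 windows held the core, against 3.97% of 32851 windows. The 4 members that hold a core are also those with the lowest log2 change below, though that of Atf3 rests on 1 array. Since the members were chosen with that comparison known, nothing is read from this. The matched sites are shown 5′ to 3′ on the gene's strand with the 8 matched bases in capitals.
Vldlr: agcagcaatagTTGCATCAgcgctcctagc
Atf3: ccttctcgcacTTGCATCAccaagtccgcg
Trib3: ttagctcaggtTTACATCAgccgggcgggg
Chac1: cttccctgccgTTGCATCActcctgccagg

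All of these read TGATGNAA on the opposite strand. The Vldlr site (chr19:27216809-27216838, plus strand) has its core from -200 to -193 before the downstream start, 336 bases after the upstream start. That of Atf3 (chr1:191183425-191183454, minus strand) has its core from -110 to -103. That of Chac1 (chr2:119351038-119351067, plus strand) has its core from -193 to -186. The Trib3 core lies just after the start, from 15 to 22 (chr2:152344028-152344057, minus strand). The Chac1 window holds a further element, TGACGNAA, at its outer end, seen with the core in the first 100 bases of the window (chr2:119350992-119351091).
Chac1: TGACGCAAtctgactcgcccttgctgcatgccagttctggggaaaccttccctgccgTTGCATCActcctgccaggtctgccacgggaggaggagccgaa

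TGACGNAA, which cannot match the same bases as TGATGNAA, was in 2 of 11 member windows (Chac1 and Atf3) and 1.59% of all windows. The full cyclic AMP element TGACGTCA was in 1, that of Ppp1r15a (chr7:45526262-45526291, minus strand), and in 1.79% of all windows. The longer endoplasmic reticulum stress element was in 0 and in 0.119%. The Ppp1r15a site is shown for its whole palindrome, in capitals.
Ppp1r15a: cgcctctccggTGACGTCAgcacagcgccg

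A match is a description of the letters and does not show binding. Over all 10117 tested genes with a window, the 270 that hold TGATGNAA had a median log2 change of 0.05 and the others 0.05. Lower within both numbers were 28.5% of genes with the core and 26.1% of those without it, a difference that was not tested. Of the 15 tested amino acid supply genes with a window, 3 held it (Asns, Slc7a11 and Slc1a4).

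The deposited values are array signals on a linear scale, set by the authors so that each array has the same trimmed mean. Array medians ran from 75.8 to 97.8, and overlapped between the genotypes. Signals were compared on the log2 scale, beside a median change of all genes of 0.05. A gene is described by its brightest probe set, and was tested where the geometric mean over the 4 arrays reached 47.7, the 40th percentile of probe sets. That signal was also taken as the lowest that reads as a level. Paxip1, which encodes PTIP, read 43.5 and 74.6 in PTIP -/- cells against 1029.5 and 1040.1 in PTIP +/+ cells. Fibroblast markers fitted the label, 9 of 10 lying above 47.7 on all arrays, with Vim, an intermediate filament, at 30992.3 to 39291.8. The exception was Dcn, a matrix proteoglycan, at 242.7 and 18.7 in PTIP -/- against 1266.0 and 84.5. Of the markers of other cells, those above 47.7 on all arrays were 3 of 6 for macrophages, 2 of 5 for epithelium, 1 of 4 for endothelium, 1 of 4 for skeletal muscle and 0 of 3 for pluripotent cells. The brightest were Csf1r (218.1 to 278.2), Epcam (220.4 to 436.1), Kdr (107.0 to 172.0), Des (70.2 to 85.8) and Pou5f1 (3.5 to 29.5). Lyz2, a macrophage lysozyme, was higher in PTIP -/-, at 333.3 and 99.9 against 153.4 and 36.0, while Ptprc lay above 47.7 on 2 of 4 arrays and Aif1 on 0. The 6 macrophage markers summed to 851.0 and 562.7 against 645.5 and 463.7, and the fibroblast markers to 173858.7 and 155035.6 against 182177.1 and 189021.0. Their part in the members' genotype differences was not tested.

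Vldlr, Trib3 and Chac1 were the members whose signals separated the genotypes most clearly, all lower in PTIP -/-. Vldlr was 6.73-fold lower, Trib3 1.76-fold and Chac1 1.44-fold. Atf4 itself was 1.24-fold lower, and Ddit3 and Ppp1r15a lay within 1.08-fold of the controls. Ddit4 differed far more between the replicate numbers than between the genotypes. In this bulk RNA, fewer cells with a transcript and less of it per cell cannot be told apart.

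**Figure D1:**
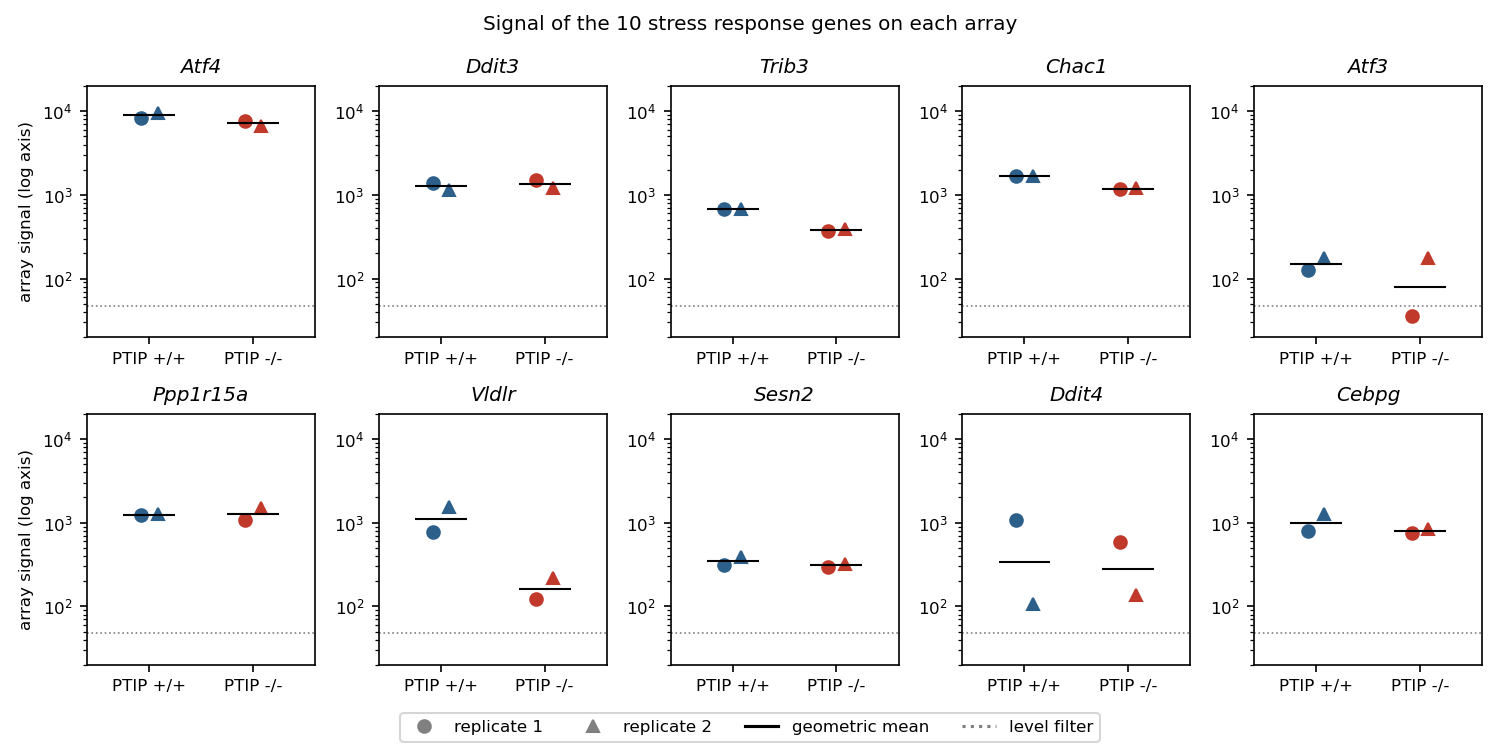
Signal of the brightest probe set of each member on a log axis, by genotype, with circles for replicate 1, triangles for replicate 2, a bar at the geometric mean of the 2 arrays and a dotted line at 47.7. Vldlr, Trib3, Chac1 and Atf4 have both PTIP -/- arrays below both PTIP +/+ arrays, while Ddit4 is split by the replicate number.

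Both PTIP -/- arrays lay below both PTIP +/+ arrays for 4 of 10 members, against 12.1% of all genes tested, and above them for 0, against 16.6%. Over the 4 arrays 8 members were lower in PTIP -/- by any size, against 43.9% of genes. Within both replicate numbers 6 members were lower, against 25.8% of genes, 1 was higher, against 33.9%, and 3 changed sides, against 40.2%. At least 1.5-fold lower within both numbers were 2, Vldlr and Trib3, against 2.21% of genes, and 0 were higher by as much, against 3.43%. Just inside that limit stood Trib3, with log2 differences of -0.85 and -0.78, and just outside it Chac1, with -0.55 and -0.50. Since the members were chosen with this comparison known, nothing is read from these shares. With limma, 0 of 12509 genes (0%) passed at an adjusted p under 0.05 between the genotypes, members included, and 286 (2.29%) had an unadjusted p under 0.05. Paxip1, the deleted gene, was 18.2-fold lower and did not pass either. With 2 arrays a genotype, this 0 therefore does not show that genes did not differ. The median log2 change of the members was -0.33, and -0.37 and -0.39 within numbers 1 and 2.

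**Figure D2:**
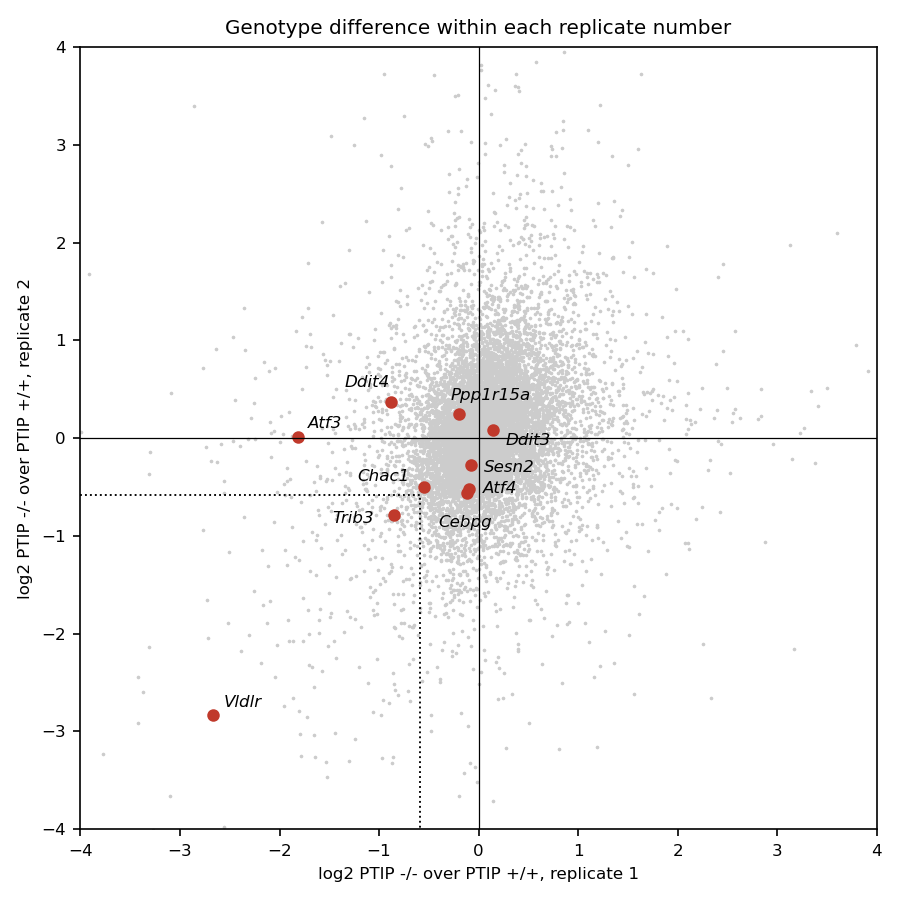
The log2 difference of PTIP -/- from PTIP +/+ on the replicate 1 arrays (x axis) and on the replicate 2 arrays (y axis) for all tested genes (grey) and the 10 members (red), with axes cut at 4. The dotted corner marks 1.5-fold lower within both numbers and holds Vldlr and Trib3, with Chac1 just outside.

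The transcription factors of the response differed little or unevenly. Atf4 read 7701.8 and 6664.5 in PTIP -/- cells against 8253.7 and 9582.0 in PTIP +/+ cells. The groups did not overlap, but the gap was 1.07-fold in number 1 and 1.44-fold in number 2 (log2 -0.31 ± 0.26, SE). A second Atf4 probe set, of the kind marked _x_at, some of whose probes can match other transcripts, read 3282.6 and 2484.8 against 3244.0 and 2007.9. It was slightly higher in PTIP -/- (log2 0.16 ± 0.44, SE), so the Atf4 probe sets disagree in direction. The third was below 47.7 on all 4 arrays and gives no level.

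Cebpg, a C/EBP protein without an activation domain that pairs with ATF4, had signals of 743.2 and 847.0 in PTIP -/- cells against 805.4 and 1253.0 in PTIP +/+ cells. PTIP +/+ replicate 2 stood above the other 3 arrays, and the groups overlapped (log2 -0.34 ± 0.33, SE). Without that array the difference was -0.02. The other probe sets, at 412.5 and 398.6 against 471.1 and 705.7 and at 68.5 and 70.6 against 94.6 and 73.9, did not overlap and were 1.42-fold and 1.20-fold lower in PTIP -/-.

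Ddit3 encodes CHOP, the factor linked to cell death in prolonged stress. It read 1512.5 and 1225.6 in PTIP -/- cells against 1371.6 and 1160.0 in PTIP +/+ cells. The groups overlapped, and the difference of 0.11 ± 0.28 (SE) turned to -0.07 with arrays centred on their medians. Its dim second probe set was 1.53-fold higher by number 1 but 2.19-fold lower by number 2.

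Atf3, a stress-induced factor that mostly represses, gave 35.7 and 177.5 against 125.8 and 175.7. A single array, PTIP -/- replicate 1, was low and below 47.7, while the other 3 lay close together. The log2 change of -0.90 ± 0.85 (SE) rests on it: without that array it was 0.26, and within number 2 the signals differed by 1.01-fold.

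Trib3 and Chac1, feedback and effector genes that are among the usual ATF4 targets, had the tightest values. Trib3 is a pseudokinase that binds ATF4 and dampens it. Its brightest probe set, also of the _x_at kind, read 374.1 and 391.9 in PTIP -/- cells against 672.4 and 674.7 in PTIP +/+ cells (mean log2 difference -0.81 ± 0.24, SE). The second read 253.3 and 278.4 against 530.0 and 1228.5, 3.04-fold lower, with the PTIP +/+ arrays well apart. Both probe sets put both PTIP -/- arrays below both controls, and the size depends on which is taken.

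Chac1, an enzyme that breaks down glutathione, has 1 probe set. It read 1165.5 and 1201.4 in PTIP -/- cells against 1703.3 and 1697.6 in PTIP +/+ cells. The SD of log2 signal was 0.031 in PTIP -/- and 0.0034 in PTIP +/+ (n = 2 each), against a difference of -0.52 ± 0.24 (SE). The SE is larger than these SDs because limma draws each gene's spread towards that of all genes.

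Ppp1r15a encodes GADD34, which brings a phosphatase to eIF2 and so ends the response. It read 1067.0 and 1506.8 in PTIP -/- cells against 1219.6 and 1274.7 in PTIP +/+ cells. The PTIP -/- arrays lay on either side of the controls, and the change of 0.02 ± 0.30 (SE) turned to -0.15 with centred arrays.

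Sesn2 and Ddit4 (REDD1) both hold back the growth kinase mTORC1, the first by sensing leucine and the second through the TSC complex. Sesn2 read 298.0 and 321.6 against 313.2 and 390.1, with overlapping groups (log2 -0.18 ± 0.27, SE). Its second probe set read 67.5 and 235.7 against 302.9 and 60.2, 4.49-fold lower by number 1 but 3.92-fold higher by number 2. Ddit4 read 582.3 and 137.4 in PTIP -/- cells against 1074.8 and 106.2 in PTIP +/+ cells. Both number 1 arrays were high and both number 2 arrays low, so the genotype difference was -0.26 ± 1.38 (SE), with PTIP -/- lower in number 1 and higher in number 2. Without PTIP +/+ replicate 1 it was 1.41 and without PTIP -/- replicate 2 it was 0.79. Without PTIP +/+ replicate 2 it was -1.93 and without PTIP -/- replicate 1 it was -1.30.

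Vldlr, the very low density lipoprotein receptor, also binds reelin and is a known ATF4 target of stressed cells. Its brightest probe set, of the _x_at kind, gave 121.3 and 218.0 in PTIP -/- cells against 769.0 and 1556.7 in PTIP +/+ cells. The groups stood far apart, at 6.34-fold in number 1 and 7.14-fold in number 2 (log2 -2.75 ± 0.52, SE). Of the 12509 genes, 15 had a lower log2 change over the 4 arrays.

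The next brightest Vldlr probe set by mean log2 signal, not of the _x_at kind, read 45.0 and 89.6 against 226.4 and 516.4, 5.38-fold lower. The third read 103.0 and 71.0 against 156.9 and 396.8, 2.92-fold lower. The fourth, at 79.5 and 55.8 against 189.9 and 337.8, was 3.80-fold lower. The last pair were dim, one 1.96-fold lower with overlapping groups and the other below 47.7 in both PTIP -/- arrays and at least 1.17-fold lower. The 5 above the filter were lower in PTIP -/- within both numbers, and 4 of them had no overlap between the groups, against 10.5% of all probe sets. The 1 below it had both number 1 signals under 47.7, where no direction is read. These probe sets share a gene and the same 4 RNAs and are not replicates. Over the 20 member probe sets above the filter, 13 were lower within both numbers, against 22.3% of all probe sets. By measured signals 7 were at least 1.5-fold lower within both, against 2%. With signals below 47.7 raised to it these were 6, against 1.72%, of which 4 belong to Vldlr and 2 to Trib3.

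**Figure D3:**
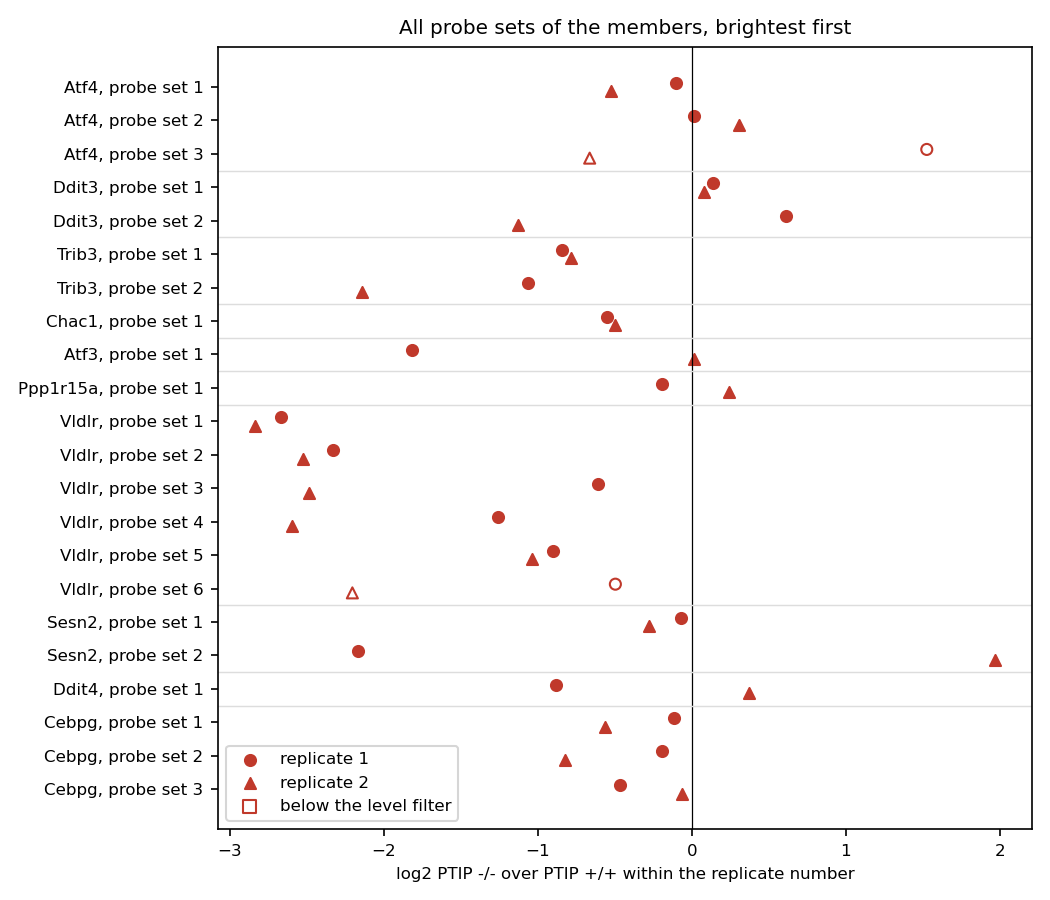
The log2 difference of PTIP -/- from PTIP +/+ within replicate 1 (circles) and replicate 2 (triangles) for all 22 probe sets, brightest first within a gene, with open symbols for probe sets below the level filter. The 5 Vldlr probe sets above the filter lie left of 0, while the second probe sets of Ddit3 and Sesn2 have the numbers on opposite sides.

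The replicate number gives a comparison that the choice of members did not use. The difference of number 2 from number 1, fitted with limma beside the genotype, passed at an adjusted p under 0.05 for 80 of 12509 genes (0.64%), and for 0 of the 10 members. At an unadjusted p under 0.05 stood 2 members, Ddit4 and Vldlr, against 22.8% of genes. Ddit4 came nearest, 6.55-fold lower in number 2 (log2 -2.71 ± 0.39, SE, limma adjusted p = 0.0992), lower in 2 of 2 genotypes. It passed under 3 of 13 other settings, some of which leave out an array or the genotype term. With all 4 arrays and the genotype term the limma adjusted p ran from 0.0224 to 0.521. Of the 10 fibroblast markers, 3 were lower in number 2 in both genotypes, 4 higher and the other 3 mixed. The lower ones were Dcn, Thy1 and Pdgfra, and the higher ones Col1a1, Col3a1, Fn1 and Vim. Thy1 read 14822.9 and 16080.1 in number 1 and 1500.7 and 239.2 in number 2, and Pdgfra 3563.4 and 5010.1 against 174.2 and 583.2. Col1a1 read 20897.1 and 25065.2 in number 1 and 23821.2 and 33210.9 in number 2, and Col3a1 17744.2 and 14022.3 against 18454.7 and 18778.3. Fn1 read 27380.2 and 27096.7 against 28201.1 and 28247.9, and Vim 30992.3 and 31040.7 against 33293.8 and 39291.8. The falls were far larger in fold than the rises, which the counts do not show, and the share over all genes is not given here. The 10 markers summed to 173858.7 and 182177.1 against 155035.6 and 189021.0, sums that the brightest markers dominate. Their part in the Ddit4 difference was not tested.

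The brightest Vldlr probe set was 1.91-fold higher in number 2, in both genotypes (log2 0.93 ± 0.20, SE, limma adjusted p = 0.143). Other settings with all 4 arrays and the genotype term gave Vldlr a limma adjusted p from 0.0717 to 0.503. In PTIP -/- the 5 Vldlr probe sets above the filter disagreed in direction between the numbers. Brightest first, their log2 differences of number 2 from number 1 were 0.85, 0.99, -0.54, -0.51 and 1.13. Those at 0.99 and 1.13 had PTIP -/- replicate 1 below 47.7. In PTIP +/+ all 5 were higher in number 2, at 1.02, 1.19, 1.34, 0.83 and 1.27. Atf3 was 2.64-fold higher in number 2 (log2 1.40 ± 0.52, SE, limma adjusted p = 0.24), mostly in PTIP -/-. Over other settings with all 4 arrays and the genotype term its limma adjusted p ran from 0.178 to 0.623. Atf4, Trib3 and Chac1 differed by 0.00, 0.04 and 0.02 log2 between the numbers, with SEs of 0.23, 0.20 and 0.20. For 6 members the difference between the numbers was larger than that between the genotypes, against 63.4% of all genes. Trib3, Chac1, Atf4 and Vldlr were the other 4.

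**Figure D4:**
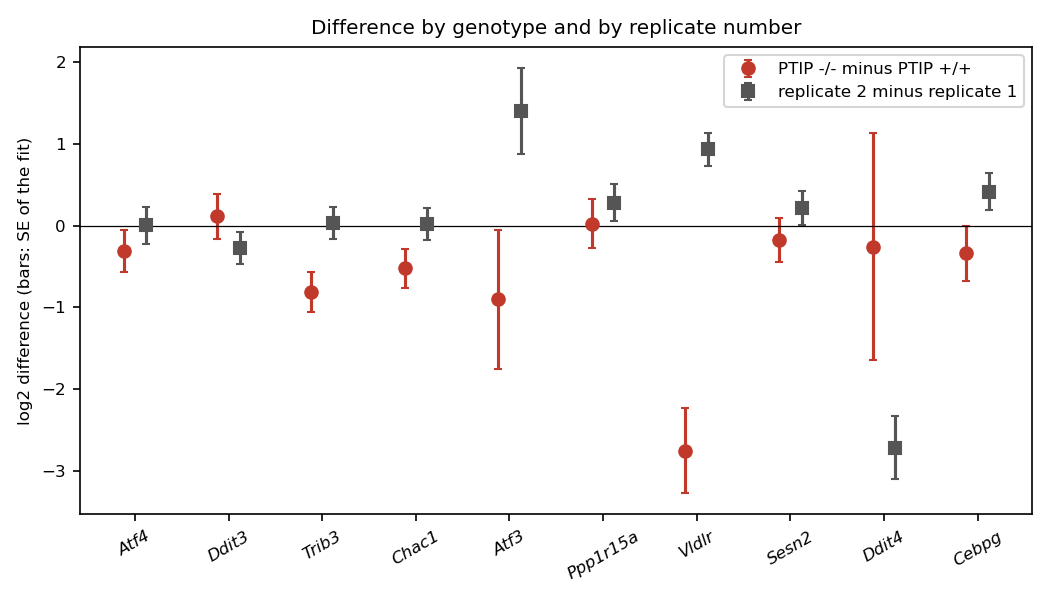
The log2 difference between genotypes (circles) and between replicate numbers (squares) of each member over the 4 arrays, with the SE of the limma fits as bars. The genotype fit left out the replicate number, while the number fit held the genotype, so the lengths of their bars are not comparable. Vldlr lies lowest by genotype at -2.75, and Ddit4 lowest by number at -2.71.

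The nearest relatives of the members did not share one direction. Of 12 tested, 8 were lower in PTIP -/-, against 43.9% of all genes, and 4 higher, around a median of -0.22 log2. Cebpb and Cebpd, C/EBP partners of ATF4, were 2.17-fold and 2.07-fold lower, and higher in number 2 in both genotypes, at 912.4 and 2060.0 against 1964.4 and 4512.2 for Cebpb. Trib1 was 1.47-fold lower, Trib2 lower in number 1 and higher in number 2. Sesn3, another sestrin, read 515.7 and 1297.9 against 428.9 and 404.1 and was 1.97-fold higher. Ddit4l was 1.63-fold higher (log2 0.70 ± 0.98, SE), at 94.0 and 283.6 against 46.0 and 219.0, with PTIP +/+ replicate 1 below 47.7. Atf5, Jdp2, Chac2, Ppp1r15b, Sesn1 and Lrp8 lay between -0.27 and 0.19 log2. The other lipoprotein receptor of the reelin pathway, Lrp8, read 617.0 and 266.3 against 585.4 and 252.3, 1.06-fold higher, where Vldlr was 6.73-fold lower.

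Upstream of ATF4, the eIF2 kinases and their helpers had a median of 0.14, with 2 of 6 lower, against 43.9% of all genes, and 4 higher. Impact, which restrains the amino acid sensor GCN2, read 2305.7 and 2445.7 against 1613.2 and 1157.5, 1.74-fold higher, and Eif2ak2, the kinase PKR, was 1.71-fold higher. The other kinases, Eif2ak1, Eif2ak3 and Eif2ak4, lay between -0.14 and 0.16. Subunits of eIF2 and of its exchange factor eIF2B, with Ppp1r15b, had a median of -0.07 over 8 genes, Eif2s2 at -0.30 and Eif2b3 at -0.24 being farthest. Among partners and regulators of the ATF4 protein, 5 of 9 were lower, also against 43.9% of all genes, Cebpb and Cebpd farthest.

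Downstream, amino acid supply genes known as ATF4 targets were lower in 16 of 19, against 43.9% of all genes, with a median of -0.49 against 0.05. At least 1.5-fold lower within both numbers were 6 by measured signals, against 2.21% of genes, and 5 with signals below 47.7 raised to it, against 1.95%, Slc7a11 dropping out. Psat1, of serine synthesis, read 5351.6 and 5110.3 against 9180.8 and 12749.3, and the cystine transporter gene Slc7a11, dim at 26.1 and 61.3 against 45.7 and 136.2, could be read in number 2 alone, 2.22-fold lower. Cytosolic aminoacyl-tRNA synthetases were lower in 15 of 17, also against 43.9%, by a median of -0.22, Cars and Mars1 farthest at -0.61 and -0.54. Other stress effectors were lower in 10 of 14, against 43.9% of all genes, around a median of -0.22. Bcl2l11, a death factor, read 395.3 and 578.9 against 394.6 and 190.8, the difference lying in number 2, where it was 3.03-fold higher. Stc2, a secreted glycoprotein, was 1.08-fold higher in number 1 and 2.62-fold lower in number 2. The ATF6 and XBP1 arms of the unfolded protein response had 12 of 19 lower, against 43.9% of all genes, around -0.19. The sensor Atf6 was at -0.67 and the chaperone Dnajb9 at 0.66. With limma 0 genes of these lists passed in either direction. All gene lists here, like the members, were chosen with earlier results of these data known, so nothing is read from their shares.

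**Figure D5:**
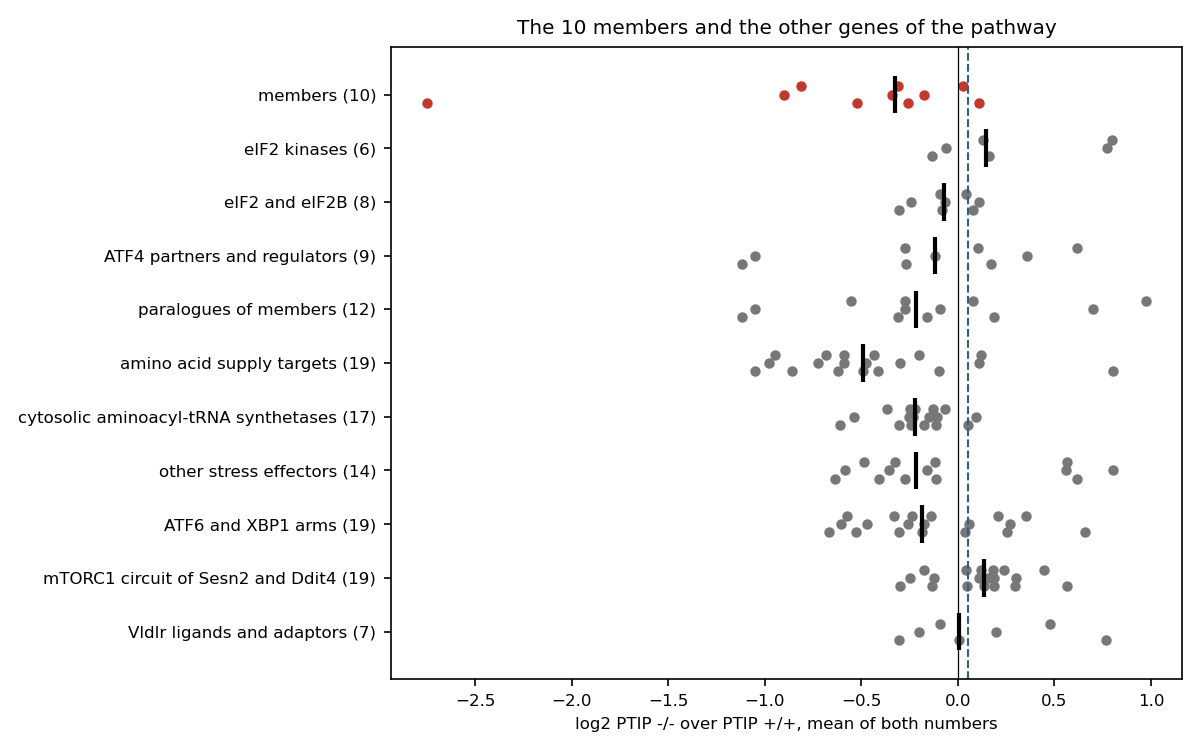
The log2 change between genotypes of each tested gene, by list, with the number of tested genes in brackets, a black bar at the list's median and a dashed line at the median of all genes, 0.05. The members (red) have a median of -0.33, the amino acid supply genes -0.49 and the mTORC1 circuit 0.14.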

How the data were processed

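The deposited values are array intensities, 1 per probe set and array. The submitters' processing notes name RMA without a version. The deposited intensities, however, are linear, reach 0 for 1 probe set, and share a mean of 500.0 after trimming 2% at each end. Background correction, probe summary and genome build were each not given in the sources used here. Members and gene lists were chosen with earlier results of these data known.

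The single 0 was set to 0.1, values were taken to log2 and 64 of 45101 probe sets, controls, were left out. Of the rest, 34945 had 1 gene symbol in the platform annotation, 932 several and 9160 none. Symbols of 34741 were updated through RefSeq gene numbers (GRCm38.p6, names only). Each gene's values are those of the probe set brightest by mean log2 signal. The filter kept 12509 genes and left out 5684. It uses the mean over all arrays.

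The genotypes were compared with limma 3.58.1 (R 4.3.3, lmFit and eBayes, 2 residual degrees of freedom, Benjamini-Hochberg adjustment). The replicate numbers were compared in a fit that also held the genotype, with 1 residual degree of freedom. SEs of further probe sets come from a fit to all probe sets. Folds against a group below 47.7 on both arrays are lower bounds. The genotype fit was tested on simulated data with independent noise, which did not hold the spread shared by same-numbered arrays. Genes named were the members, the 2 tested genes of each pathway list with the largest change, all tested relatives, the brightest marker of each cell type and the 3 genes nearest in profile to Atf4 and Vldlr. Paxip1, Thy1, Pdgfra, Dcn, Col1a1, Col3a1, Fn1, Lyz2, Ptprc, Aif1, Asns, Slc1a4 and the other eIF2 kinases were named after their values were seen. Alternatives covered normalization, filter, variance model, probe-set choice, low signals, the replicate block and leaving out each array.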

Additional observations from a re-analysis of the deposited data

How the results depend on the processing

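With limma 0 genes passed between the genotypes under all 14 alternatives. No pairing is stated for the numbers. Deviations of same-numbered arrays from their genotype means correlated at 0.69 across genes, and the replicate block gave 0 genes (982 at an unadjusted p under 0.05, against 286). The median of the members was -0.35 with quantile normalization, -0.50 after centring each array (a step that shifts the median of all genes by -0.18), -0.31 with the 60th percentile filter, which leaves out Atf3, -0.42 over all probe sets, and from -0.47 to -0.33 when 1 array was left out. Members at least 1.5-fold lower within both numbers became 3 with centred arrays, Chac1 joining, 7 of 20 when counted by probe set, and 6 of 20 with signals below 47.7 also raised to it, a setting added after seeing the data.

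Vldlr, Trib3, Chac1, Sesn2 and Cebpg stayed lower under all 13 alternatives run on genes. Without PTIP +/+ replicate 2, however, Sesn2 and Cebpg were each at only -0.02. Alternatives that changed only the filter, the variance model or the replicate block leave the log2 change as it was, so its direction could not turn there. Raising low signals left it unchanged for these genes too. Atf4 was 0.09 over the mean of its probe sets, its dim one included. The change of Ddit3 was also below 0 over the mean of its probe sets (-0.07), without PTIP -/- replicate 1 (-0.04) and without PTIP +/+ replicate 2 (-0.01), and that of Ppp1r15a without PTIP -/- replicate 2 (-0.22) and without PTIP +/+ replicate 1 (-0.01).

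Genes differing between the replicate numbers were 188 with quantile normalization, 207 with centred arrays, 351 with the 60th percentile filter, 365 with signals raised to 47.7 and 893 with a variance trend. They were 0 with no level filter (2401 at an unadjusted p under 0.05 with limma) and 0 with no moderation (1239), and from 0 to 85 when 1 array was left out, a fit that has no room for the genotype term. The cause was not tested.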

Other observations

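Sesn2 and Ddit4 act on mTORC1 and the complexes above it. Of 19 tested genes of this circuit, 5 were lower and 14 higher in PTIP -/-, where 56.1% of all genes were higher. Within both numbers 9 were higher, against 33.9% of all genes, and 3 lower, against 25.8%. Another 7 changed sides, against 40.2%. The median was 0.14 log2, 0.01 by number 1 and 0.22 by number 2, against 0.03 and 0.05 for all genes. Castor2, from the arginine-sensing branch, read 312.4 and 433.5 against 204.9 and 302.1, and Nprl3, a subunit of the complex that switches mTORC1 off without amino acids, 570.3 and 556.8 against 457.3 and 375.3. With limma 0 of the 19 passed. Centring the arrays moves all genes by -0.18, more than this median.

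Around the Vldlr protein, 7 tested ligands, adaptors and degradation factors had a median of 0.00. Between the numbers 5 of 7 changed sides, against 40.2% of all genes. Mylip, the ubiquitin ligase that sends the receptor to degradation, was 1.70-fold higher in PTIP -/-, at 1109.1 and 2941.9 against 773.4 and 1458.2. Lpl, lipoprotein lipase, read 149.3 and 155.1 against 291.0 and 41.0.

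The genes nearest to Vldlr in profile over the 4 arrays, by the root mean square difference of log2 signals centred on the gene's mean, were Plpp3, a lipid phosphatase (0.27, at 450.0 and 834.1 against 1861.2 and 4535.1), Metrnl (0.42, at 523.6 and 645.3 against 1675.0 and 3271.0) and the growth factor gene Fgf7 (0.43, at 462.8 and 370.2 against 1592.2 and 3536.5). For Atf4 they were the translation factor gene Eif4a1 (0.014), Syncrip (0.016) and Usp42 (0.016), in a profile that itself spans little (0.19 from its mean). With 4 arrays and 12509 genes, near profiles arise easily, and nothing is read from them.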
